A study of Homo sapiens with 6 samples.

Results

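Innate sensing and interferon response genes were examined as a set of 38 genes among the 60162 genes of the deposited table of read counts. The genes were listed by name, with earlier results of these data known. The set holds 6 sensors and adaptors of foreign nucleic acid, 5 transcription factors, 2 chains of the type I interferon receptor, 2 interferons, 17 antiviral effectors and 6 antigen presentation genes. The samples are labelled as HUH7, a human hepatocellular carcinoma line, and were taken 48 h after transfection with Lipofectamine RNAiMAX, with 2 samples each of siNC (the control siRNA), siLETN (against the lncRNA LETN) and siNPM1 (against NPM1, a nucleolar phosphoprotein). All of them share the transfection reagent and a duplex RNA, and an untransfected sample was not analysed here. The 6 value columns carry names that match no sample label, so they are called libraries 1 to 6 after the number in their names, and no siRNA was assigned to any of them. No comparison of knockdown with control was therefore made, and the values below describe levels and their spread over 6 libraries that, as a set, mix conditions.

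Each library held between 8034137 and 10224212 counted reads. Levels are given as counts per 1000000 counted reads of the library (CPM), and per kb of exon where genes are set against each other. A count of 0 in a single library allows up to 0.293 to 0.373 CPM, taken as 3 reads of its total. Intervals and floors cover counting error only, and not the spread between cultures. In bulk RNA, fewer cells that express a gene and less RNA per cell cannot be told apart.

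The labelled cell type was checked against 8 hepatocyte genes, and the libraries did not carry the profile that the label implies. AFP, APOB and FGB had 0 reads in all 6 libraries. ALB, which encodes serum albumin, had 1 read in libraries 1 and 4 and 0 reads in the others. APOA1 had at most 2 reads and TTR at most 1 read in any library. The other 2 markers were expressed, with HNF4A between 75.2 and 115 CPM (median 92.1) and SERPINA1 between 74.3 and 145 CPM (median 91.1). Of the 8 haematopoietic markers, CD3E and NKG7 had 0 reads in all libraries, PTPRC, CD68 and CSF1R had at most 2 reads, and CD14 reached 0.929 CPM. LYZ, which encodes lysozyme, was the exception, at 1273 to 1769 CPM. The 5 stromal and endothelial markers with a row in the table summed to between 0.587 and 1.61 CPM per library. As the name HUH7 rests on the labels alone, the columns are referred to as libraries and not as HUH7 cells in what follows.

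**Figure D1:**
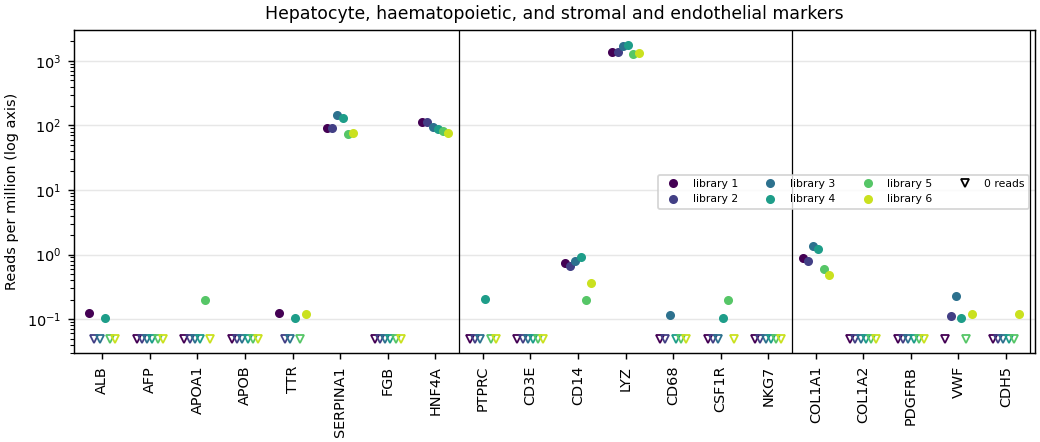
Markers of hepatocytes (left), haematopoietic cells (middle) and stromal and endothelial cells (right) in libraries 1 to 6, in CPM on a log axis; each point is 1 library and open triangles mark 0 reads. HNF4A, SERPINA1 and LYZ sit above 70 CPM in every library, whereas ALB, AFP, APOA1, APOB, TTR and FGB have 2 reads or fewer in each.

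Cells detect foreign nucleic acid with receptors in the cytosol and in endosomes. IFIH1 (MDA5) and DHX58 (LGP2) recognise double-stranded RNA and signal, in the case of IFIH1, through the mitochondrial adaptor MAVS. TLR3 recognises double-stranded RNA in endosomes, and CGAS recognises DNA and signals through STING1. These routes activate IRF3 and IRF7, which switch on the genes of the interferons. Secreted type I interferon binds IFNAR1 and IFNAR2, and a complex that includes STAT2 and IRF9 then binds the interferon-stimulated response element (ISRE) in the promoters of antiviral and antigen presentation genes.

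The promoter sequences are shown first, because the element that many of these genes share frames the question whether they were high in the same libraries. RefSeq promoter windows of GRCh38.p14, from 250 bases before to 50 bases after a transcription start, were matched for 28 of the 38 genes. The ISRE core was searched on both strands as GAAA, 2 bases of any kind and GAAA again (TTTC in place of GAAA on the other strand). In the set, 18 of the 28 genes held it in at least 1 window, against 4.38% of all genes with a window. By window, 22 of 36 held it, against 3.57% of all windows. The GAS motif (TTCNNNGAA, which reads the same on both strands) was found in 11 of the 28, against 9.38% of all genes. The genes were listed as interferon response genes, so the choice of the list favours such motifs. No conclusion is drawn from these shares. The motifs were searched separately and their matches may overlap. A match describes the letters only and says nothing about whether a factor binds there.

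The following stretches hold the ISRE core of 7 genes, in capitals, with 20 bases on each side, 5′ to 3′ along the gene. They were chosen so that the genes, as a set, cover different levels and more than 1 library of highest value. Some share that library: IFI44 and IFI27 were highest in library 6, and ISG15 and B2M in library 1. IFITM1 had 0 reads and so no highest library.
IFIT1 (chr10:89392487-89392549, plus strand): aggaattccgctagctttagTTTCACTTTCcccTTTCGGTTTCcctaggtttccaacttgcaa
IFI44 (chr1:78649751-78649800, plus strand): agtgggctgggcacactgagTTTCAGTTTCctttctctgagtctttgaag
OAS3 (chr12:112938311-112938360, plus strand): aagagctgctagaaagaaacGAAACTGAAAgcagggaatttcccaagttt
IFI27 (chr14:94110608-94110670, plus strand): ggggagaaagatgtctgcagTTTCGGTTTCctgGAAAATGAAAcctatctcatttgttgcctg
ISG15 (chr1:1013364-1013419, plus strand): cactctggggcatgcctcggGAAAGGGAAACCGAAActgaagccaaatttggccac
B2M (chr15:44711353-44711408, plus strand): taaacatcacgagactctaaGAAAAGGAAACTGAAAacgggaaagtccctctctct
IFITM1 (chr11:313980-314029, plus strand): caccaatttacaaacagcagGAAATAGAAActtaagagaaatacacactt

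Of the 38 genes, 26 had a median of at least 1 CPM over the libraries, beside 56.9% of protein-coding genes and 22.6% of all genes in the table. The median over the 38 genes was 2.37 CPM, compared with 4.96 CPM for protein-coding genes. All 5 transcription factors, both receptor chains and 5 of the 6 sensors and adaptors reached 1 CPM, as did 11 of the 17 antiviral effectors and 3 of the 6 antigen presentation genes, but neither interferon did. Of the 12 genes under this level, 6 were antiviral effectors and 3 were antigen presentation genes. IFNL1 and IFITM1 had 0 reads in all 6 libraries, and 5 other genes had 0 reads in some libraries and reads in others.

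**Figure D2:**
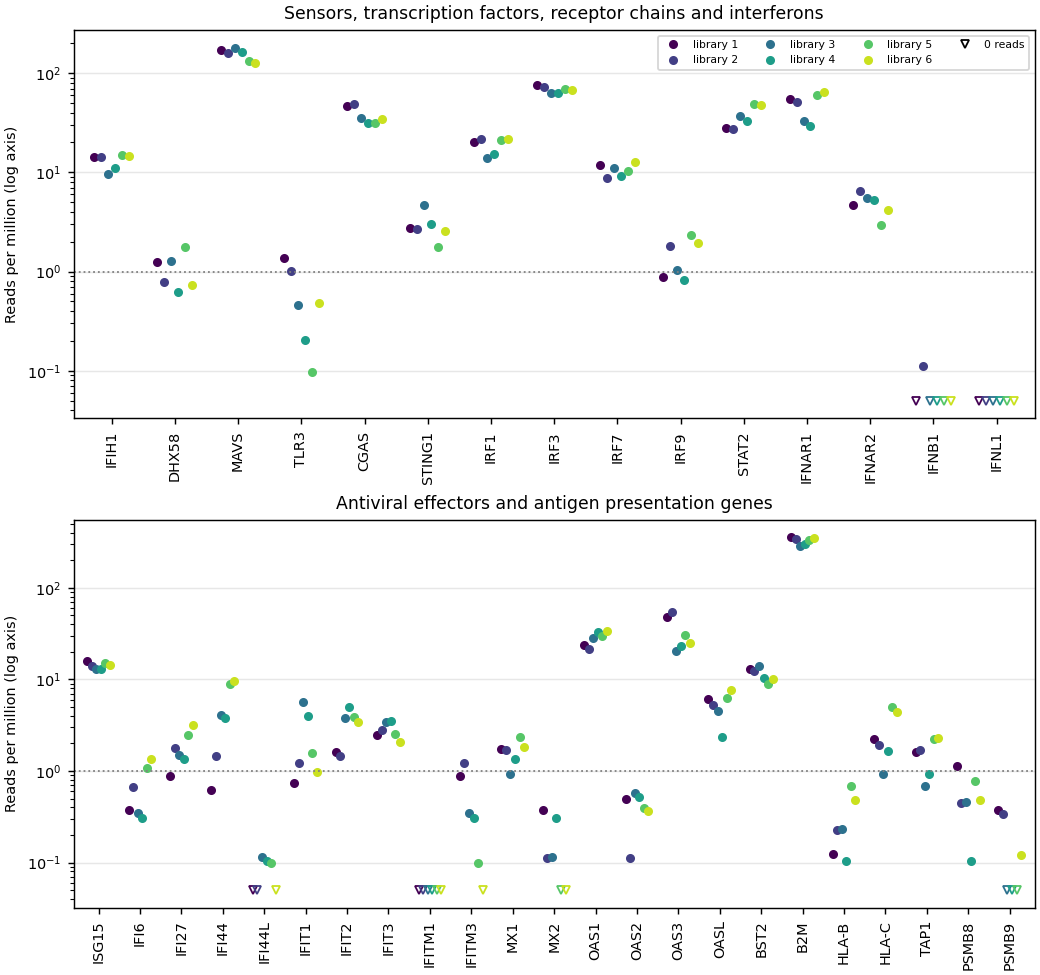
Level of each of the 38 genes in libraries 1 to 6, in CPM on a log axis, with the genes ordered by role; each point is 1 library, open triangles mark 0 reads, and the dotted line is 1 CPM. MAVS and B2M are the highest, and IFNL1 and IFITM1 have 0 reads in all libraries.

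Per kb of exon, B2M was the highest of the set. With merged exons as the length, B2M had a median of 108 CPM per kb, followed by IRF3 at 18.2, ISG15 at 16.4, MAVS at 13.7, BST2 at 10.3 and CGAS at 8.35 CPM per kb. B2M was above 99.0% of protein-coding genes on this scale, IRF3 above 88.8% and ISG15 above 87.4%. With the length of the canonical transcript in place of merged exons, B2M, IRF3 and ISG15 kept the first 3 places, but OAS1 moved from 2.24 to 17.9 CPM per kb, above MAVS at 13.8. The order among genes of similar level thus depends on the gene model.

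**Figure D3:**
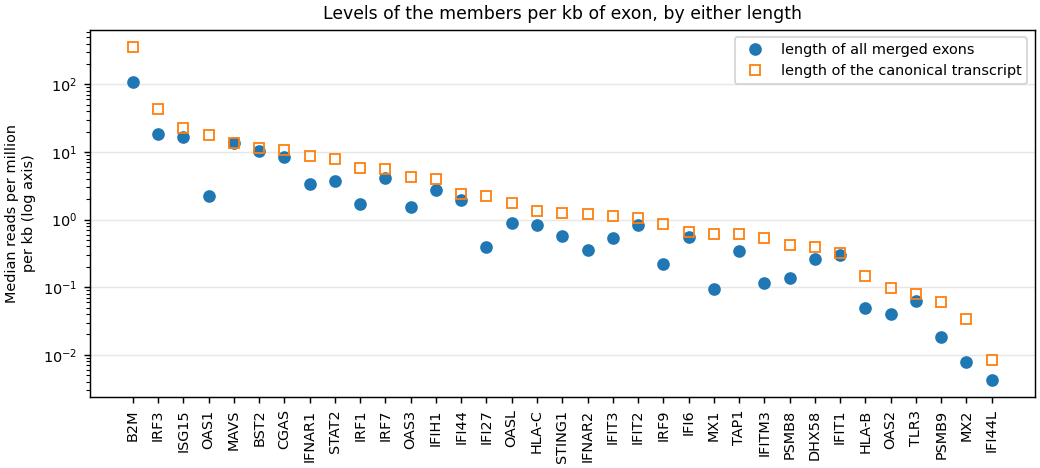
Median level over the 6 libraries in CPM per kb of exon, on a log axis, for the genes whose median is above 0, ordered by the value on canonical length; circles use merged exons and squares the canonical transcript. B2M lies highest on either length, at 108 and 359 CPM per kb.

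Among the RNA sensors, the adaptor MAVS was the most abundant, and the endosomal receptor was close to absent. MAVS ranged from 126 to 180 CPM (median 162), lowest in libraries 5 and 6. IFIH1 ranged from 9.53 to 15.1 CPM (median 14.4). Libraries 3 and 4 were the lowest for IFIH1, and the other 4 lay between 14.4 and 15.1 CPM. DHX58 ranged from 0.619 to 1.76 CPM (median 1.01), from 6 to 18 reads per library. TLR3 was under the level, at 11, 9, 4, 2, 1 and 4 reads in libraries 1 to 6, or 0.0978 to 1.37 CPM. Its 2 highest values were in libraries 1 and 2.

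On the DNA sensing route, the receptor was expressed well above its adaptor. CGAS, which makes the second messenger cGAMP, ranged from 31.3 to 48.7 CPM (median 34.8), with libraries 1 and 2 above the other 4. STING1, the adaptor that cGAMP binds, ranged from 1.76 to 4.71 CPM (median 2.71). Per kb of merged exon the medians were 8.35 for CGAS and 0.566 for STING1, and per kb of canonical transcript 10.9 and 1.25. STING1 was highest in library 3, with 41 reads, and lowest in library 5, with 18 reads. These libraries differed 2.67-fold, with a 95% interval of 1.502 to 4.945. This exact interval, and those that follow, compare the highest with the lowest of 6 libraries, and the choice of the extremes is not part of them.

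The transcription factors were expressed throughout, apart from low counts of IRF9. IRF3, which is activated by phosphorylation, ranged from 62.4 to 76.3 CPM (median 68.9) and was among the steadiest of the set, with a ratio of highest to lowest library of 1.22. IRF7, which amplifies the response, ranged from 8.86 to 12.8 CPM (median 10.6). IRF1, which binds related promoter elements and is itself interferon-stimulated, ranged from 13.9 to 21.6 CPM (median 20.7). Libraries 3 and 4 were the lowest for IRF1, as for IFIH1, but the Poisson intervals of library 4 overlapped those of library 1 in both genes. STAT2 ranged from 27.4 to 48.9 CPM (median 35.0). It was highest in libraries 5 and 6, at 48.9 and 47.7 CPM, and lowest in libraries 1 and 2, at 27.9 and 27.4 CPM. IRF9, the partner of STAT2, had 7 to 24 reads per library and 0.826 to 2.35 CPM (median 1.41).

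The low count of IRF9 has a limit in the gene models. In GENCODE release 44, 92.6% of the windows of 100 bases in its canonical transcript also occur in a protein-coding gene on the same strand (ENSG00000259529), which had 1 to 5 reads per library. IFNAR2 shares 45.4% of its windows with the gene IFNAR2-IL10RB, which had 0 reads in all libraries. How reads shared between such genes were counted is not given in the sources used here, and its part in these levels was not tested. IRF1 and IRF3 overlap genes on the opposite strand over 22.9% and 19.3% of their exons, namely IRF1-AS1 (median 3.05 CPM) and BCL2L12 (median 19.6 CPM). The library kit keeps the strand, but the strand setting of the counting is not given.

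The chains of the type I interferon receptor differed from each other in level and in the libraries where they peaked. IFNAR1 ranged from 29.2 to 65.1 CPM (median 52.9), highest in library 6 and lowest in libraries 3 and 4. The ratio was 2.23, with an interval of 1.93 to 2.58. IFNAR2 ranged from 2.93 to 6.50 CPM (median 4.997), highest in library 2 and lowest in library 5, with a ratio of 2.22 and an interval of 1.40 to 3.57. Libraries 5 and 6 thus held the 2 highest values of IFNAR1 and the 2 lowest values of IFNAR2. The Poisson intervals of libraries 5 and 6 overlapped that of library 1 for IFNAR1, and those of libraries 1, 3 and 4 for IFNAR2.

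The 2 interferons of the set had at most 1 read. IFNB1, an early type I interferon of virus-infected cells, had 1 read in library 2 and 0 reads in the other 5. IFNL1, a type III interferon, had 0 of 53797172 reads over the 6 libraries, which allows up to 0.0558 CPM. Of 7 other interferon genes, 6 had 0 reads in all libraries. IFNE, an epithelial interferon, was the exception, at 5.72 to 10.8 CPM (median 9.36). Overlap with other genes was examined for the set only, and not for IFNE.

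Spread between the libraries was described by a call that needed the highest library to exceed 2 times the lowest and their exact 95% Poisson intervals not to overlap. Of the 26 genes at 1 CPM or more, 10 met both conditions, or 38.5%, beside 28.3% of the 13589 genes of the table at that level. The 10 are STING1, IFNAR1, IFNAR2, IFI27, IFI44, IFIT1, IFIT2, OAS3, OASL and HLA-C. A further 4 genes, DHX58, IRF9, MX1 and TAP1, had ratios over 2 with overlapping intervals. The median ratio of the 26 was 2.22, compared with 1.72 over all genes at that level, and genes with few reads take larger ratios from counting error alone.

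**Figure D4:**
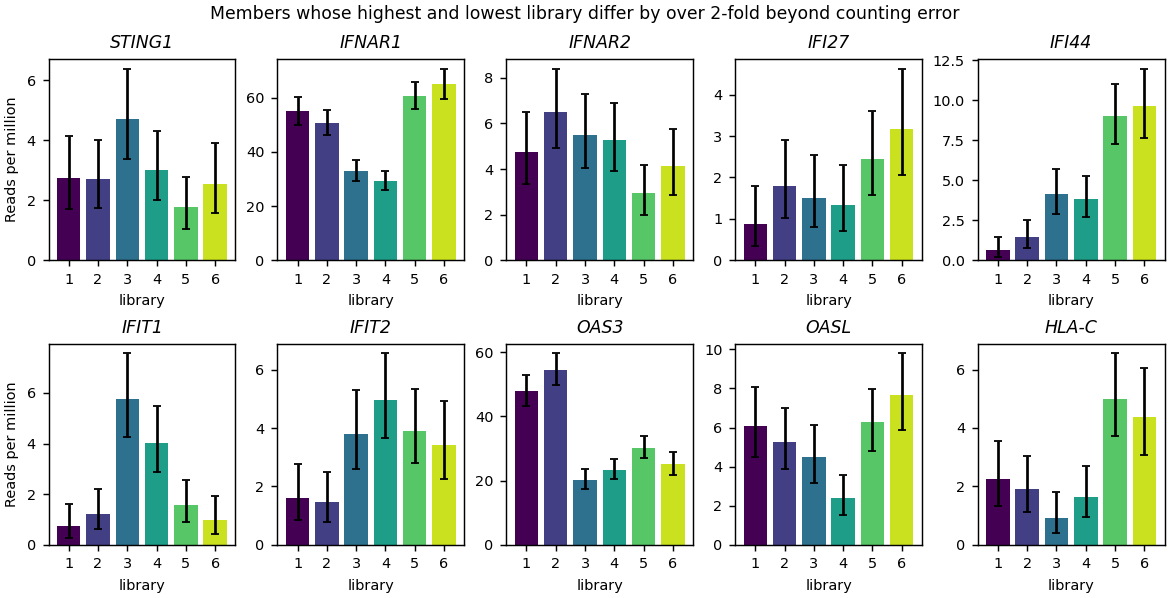
Level in CPM in libraries 1 to 6 for the 10 genes whose highest library exceeded 2 times the lowest with intervals that do not overlap; bars are single libraries and error bars are exact 95% Poisson intervals of the counts. IFI44 peaks in libraries 5 and 6, IFIT1 in libraries 3 and 4, and OAS3 in libraries 1 and 2.

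Antiviral effectors peaked in different libraries. IFI44, which encodes an interferon-induced cytosolic protein, had the largest ratio of the genes at 1 CPM or more. Its levels in libraries 1 to 6 were 0.622, 1.46, 4.13, 3.82, 8.998 and 9.61 CPM, from 5 to 92 reads. Libraries 5 and 6 did not overlap libraries 3 and 4, and these did not overlap libraries 1 and 2. The ratio was 15.4, with an interval of 6.34 to 48.9. IFI44L, its neighbour on chromosome 1, had 3 reads in all.

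The IFIT genes encode proteins that bind viral RNA. IFIT1 did not share the pattern of IFI44, and IFIT2 had in common with IFI44 only the lowest values in libraries 1 and 2. IFIT1 measured 0.747, 1.23, 5.74, 4.03, 1.56 and 0.973 CPM in libraries 1 to 6. Libraries 3 and 4 were above the other 4, with a ratio of 7.69 and an interval of 3.30 to 21.9. IFIT2 measured 1.62, 1.46, 3.79, 4.95, 3.91 and 3.41 CPM, so that libraries 1 and 2 were below the other 4, with a ratio of 3.399 and an interval of 1.81 to 6.84. The Poisson interval of library 1 overlapped those of libraries 3 and 6, and the interval of library 2 overlapped that of library 6. IFIT3 ranged from 2.07 to 3.51 CPM (median 2.67), and the interval of its ratio, 0.922 to 3.24, includes 1. Its highest values were also in libraries 3 and 4.

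The OAS enzymes make 2′-5′ oligoadenylate in the presence of double-stranded RNA. OAS1 ranged from 21.4 to 34.0 CPM (median 29.1), lowest in libraries 1 and 2, with a ratio of 1.59 that did not meet the call. The Poisson interval of library 1 overlapped those of libraries 3 and 5 for OAS1. OAS3 was highest in libraries 1 and 2, at 47.9 and 54.6 CPM, against 20.3 to 30.2 CPM in the other 4. Its ratio was 2.69, with an interval of 2.26 to 3.21. OAS2 had 1 to 5 reads per library. Per kb of merged exon, OAS1 was 60.5 times and OAS3 45.5 times OAS2 by the median of the within-library ratios, and by canonical length 199 and 51.2 times. OASL, which lacks the enzyme activity, ranged from 2.37 to 7.66 CPM (median 5.68), highest in library 6 and lowest in library 4, with a ratio of 3.23 and an interval of 1.97 to 5.45.

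ISG15, the ubiquitin-like modifier, was steady. It ranged from 13.0 to 15.8 CPM (median 14.2), and the interval of its ratio of highest to lowest library, 0.942 to 1.57, includes 1. BST2 (tetherin), which holds enveloped viruses at the cell surface, ranged from 8.998 to 13.9 CPM (median 11.3), lowest in libraries 5 and 6. IFI27 ranged from 0.871 to 3.16 CPM (median 1.64), and its 2 highest values were in libraries 5 and 6. The ratio of library 6 to library 1 was 3.63, with an interval of 1.53 to 9.90. The Poisson interval of library 5 overlapped those of all other libraries, and that of library 6 overlapped all but that of library 1. IFI6, another small interferon-induced protein, was under the level with 3 to 11 reads per library. Its 2 highest values were also in libraries 5 and 6, but their Poisson intervals overlapped those of all other libraries.

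The MX and IFITM genes were low. MX1, a dynamin-like GTPase that restricts influenza virus, had 8 to 24 reads per library and 0.919 to 2.35 CPM (median 1.71). MX1 overlaps TMPRSS2 on the opposite strand over 3.12% of its exons, and TMPRSS2 had a median of 23.1 CPM. MX2 had at most 3 reads in a library. IFITM3, which blocks the fusion of virus with the cell, had 7, 11, 3, 3, 1 and 0 reads in libraries 1 to 6. IFITM1 had 0 reads in all libraries, although its promoter holds the ISRE core shown above, and 50.1% of its windows of 100 bases occur in transcripts of other genes.

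In the antigen presentation group, the light chain was abundant and the 2 heavy chains of the set were scarce. B2M, the light chain shared by all MHC class I molecules, ranged from 290 to 357 CPM (median 338). HLA-C, a class I heavy chain, ranged from 0.919 to 4.99 CPM (median 2.07), and HLA-B had 1 to 7 reads per library. Per kb of merged exon, B2M was 136 times HLA-C by the median of the within-library ratios, from 53.5 to 254 times, and by canonical length 278 times. HLA-C was highest in libraries 5 and 6, at 4.99 and 4.38 CPM, with a ratio of 5.43 and an interval of 2.56 to 13.2. The 2 highest values of HLA-B, with 7 and 4 reads, were in the same libraries. Heavy chains outside the set, named after their values were seen, differed. HLA-E ranged from 9.96 to 19.0 CPM (median 15.3), whereas HLA-F had 1 to 14 reads and HLA-G at most 1 read per library. HLA genes are highly polymorphic, and reads that differ from the reference allele may fail to align, so their levels are uncertain.

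The genes of peptide supply to class I molecules differed in level, and those of the set were low. TAP1, a subunit of the peptide transporter, had 6 to 23 reads per library and 0.689 to 2.31 CPM (median 1.65). PSMB8 and PSMB9, inducible catalytic subunits of the immunoproteasome, had 1 to 9 and 0 to 3 reads per library. Their constitutive counterparts were expressed, with medians of 47.5 CPM for PSMB5 and 52.3 CPM for PSMB6. PSMB10, another inducible catalytic subunit that is outside the set, had 8 to 12 reads per library (median 1.02 CPM). Its constitutive counterpart PSMB7 had a median of 129 CPM. Per kb of merged exon PSMB5 was 85.9 to 973 times PSMB8 in the single libraries, and by canonical length 41.2 to 466 times. Of 17 other antigen presentation genes, 9 reached 1 CPM, led by PDIA3 (median 703 CPM) and CALR (median 486 CPM), which are general chaperones of the endoplasmic reticulum, and ERAP2, a peptide-trimming enzyme with a median of 96.5 CPM, met the call for spread. Other genes of peptide supply and loading, named after their values were seen, were also expressed, with medians of 28.5 CPM for ERAP1, 20.5 CPM for TAPBP, 37.3 CPM for PSME1 and 32.1 CPM for PSME2. TAP2, CIITA, HLA-DRA and HLA-DRB1 had 0 reads in all libraries.

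Considering the 26 genes at 1 CPM or more together, the highest value was in library 5 for 6 genes and in library 6 for 7 genes, whereas these libraries held the highest value of 15.6% and 13.1% of all genes at that level. Library 3 held the lowest value of 8 of the 26 genes, compared with 12.5% of all genes. Of the 11 genes at this level with an ISRE core in a promoter window, 5 were highest in library 5 or 6, namely IFIH1, MX1, IFI27, IFI44 and TAP1. Of these, IFI27 and IFI44 met the call for spread, whereas IFIH1, MX1 and TAP1 did not. IFIH1 was nearly equal in libraries 1, 2, 5 and 6, at 14.4 to 15.1 CPM. With 6 and 7 of all 26 genes highest in libraries 5 and 6, the tally does not set genes with the core apart. The highest value was in library 1 for B2M and ISG15, in library 2 for OAS3, in library 3 for BST2 and IFIT1 and in library 4 for IFIT3. The intervals of the ratios of ISG15 and IFIT3 include 1.

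Other genes of the pathway were described by role. Of the 10 sensing receptors, adaptors and kinases with a row in the table, 6 reached 1 CPM and 0 met the call for spread, with TRIM25 (median 117 CPM) and TBK1 (median 87.1 CPM) the highest. The 4 others, TLR7, TLR9, AIM2 and ZBP1, had 0 reads in all libraries. Of 5 other interferon regulatory factors, 3 reached 1 CPM, among them IRF2 (median 14.1 CPM) and IRF5, which met the call. Of 9 receptor chains, kinases and feedback genes, 6 reached the level, with JAK1 (median 123 CPM) and IFNGR1 (median 114 CPM) the highest, and 2, IFNLR1 and IL10RB, met the call. Of 25 other interferon-stimulated genes, 16 reached the level and 9 met the call, with ADAR (median 327 CPM) and EIF2AK2 (median 121 CPM) the highest. Of the 9 below the level, RSAD2 had at most 2 reads in a library and CXCL10 at most 1 read, both named after their values were seen.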

How the data were processed

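According to the study's methods, the authors depleted ribosomal RNA, prepared strand-specific libraries, trimmed reads with Cutadapt and aligned them with STAR to hg19 with Ensembl annotation. The deposited table holds raw read counts per gene, not normalized, in 6 columns, and most gene IDs carry the suffix of a GENCODE annotation mapped to GRCh37. The counting tool is not given in the sources used here. The names of 6 of the columns match no sample label, so all were taken as one set of libraries labelled HUH7, without conditions, and no test between groups was run. Nothing in the labels says whether samples came from separate cultures. IDs were paired with symbols by the stable ID (55482 of 60203 rows, at least 99.3% of reads), and 41 duplicate pseudoautosomal rows were left out of counts of genes. Lengths, overlaps and shared windows come from GENCODE release 44 on GRCh38. No coordinate was converted. IKBKE and PECAM1 had no matched row and were not analysed here. Levels used the column total, with edgeR 4.0.16 TMM factors, DESeq2 1.42.0 size factors and totals without mitochondrial genes as alternatives. The genes and lists were chosen with earlier results of these data known. All members were described, those at a median of at least 1 CPM or with a ratio over 2 in full, and from each other list the 2 with the highest median were named, except that some genes are not reported here. The call for spread was tested on simulated counts with Poisson error only, on genes with more reads and changes larger than the 2-fold cut. That test does not cover genes with few reads or the spread between cultures. Python 3.11.15 and scipy 1.17.1 were used.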

Additional observations from a re-analysis of the deposited data

Results flagged for a closer look

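For each of the 26 genes at 1 CPM or more, the gap of the highest or lowest library to its nearest neighbour was divided by the range over the 6 libraries. In 0 genes did this quotient pass Dixon's 95% critical value for 6 samples, and the largest was 0.582. For independent values, chance passes it in about 1 in 20 groups. The libraries resembled each other in pairs, as given below, so an extreme library mostly had a like neighbour. The quotient could then hardly pass, and no conclusion is drawn from it.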

How the results depend on the processing

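With TMM factors or DESeq2 size factors in place of column totals, 25 genes reached 1 CPM in place of 26, and 12 met the call for spread in place of 10, since IRF9 and TAP1 were added. With totals without mitochondrial genes the counts were 26 and 10. With a ratio over 1.5, 16 genes met the call, so this count depended on the cut. The share over all genes was calculated at the main setting only. The counts under other settings therefore describe the 38 genes alone and are not set against a background. With at least 1 CPM in every library, 18 genes passed the level, and with a median of at least 0.5 CPM, 27. Leaving out each library in turn gave 25 to 26 genes at the level and 8 to 9 with the call. The median over the 38 genes was 0.543 CPM per kb of merged exon and 1.17 CPM per kb of canonical transcript. All 38 medians in CPM moved by less than their SD over the libraries under TMM and DESeq2 factors. Genes under 10 reads in a library, which includes 20 of the 38 in at least 1 library, have levels that depth limits. No paired analysis was possible because no library could be tied to a replicate number or a condition.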

Other observations

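Libraries 1 and 2, 3 and 4, and 5 and 6 resembled each other most. Over the 13589 genes at 1 CPM or more, the Pearson correlation of log2(CPM + 1), across genes that are not independent replicates, was 0.9951 for libraries 1 and 2, 0.9951 for libraries 3 and 4 and 0.9950 for libraries 5 and 6. The other 12 pairs lay between 0.9568 and 0.9780. These values assign no siRNA to a library.

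Several interferon-stimulated genes outside the set, named after their values were seen, also differed between the libraries. IFIT5, a relative of IFIT1, measured 9.46, 9.53, 2.18, 3.41, 11.6 and 14.96 CPM in libraries 1 to 6, so that it was lowest in the 2 libraries where IFIT1 was highest. ISG20, an exonuclease, measured 3.86, 5.61, 5.17, 5.16, 13.4 and 11.9 CPM. SAMHD1, which degrades deoxynucleotides, measured 34.7, 33.6, 30.1, 30.8, 14.4 and 15.4 CPM. The ratios of highest to lowest library were 6.86 for IFIT5, 3.47 for ISG20 and 2.42 for SAMHD1.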
